A study of Rattus norvegicus with 4 samples.

Results

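The tripartite motif (TRIM) genes of rat were described here in NR8383, a macrophage line derived from rat lung lavage, after exposure to a titanium dioxide material. Members were all genes with the symbol Trim followed directly by a number, found through the accession that each array probe carries and the RefSeq gene table of assembly GRCr8. That table lists 67 such genes, 60 of them protein coding and 7 pseudogenes. Of these, 48 were measured, by 65 probes, among 16579 genes measured in all, and 19 had no probe named this way (12 protein coding, among them Trim24, Trim33, Trim38 and Trim56). The 4 samples form 1 group (n = 4, described as biological replicates): NR8383 cells after 20 passages, kept 48 h in flasks and given the TiO2 NRCWE001 at 3 cm2 of particle per cm2 for 4 h, per the labels and the design text. Unexposed cells were not analysed here, so the values cannot show an effect of the particles on any TRIM gene. What could be compared was each probe with its own array's background, and the 4 arrays with each other.

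TRIM proteins typically have an N-terminal RING domain, 1 or more B-boxes and a coiled coil, and most are ubiquitin ligases. Some members lack the RING. The family is sorted by what follows the coiled coil, most often a PRY-SPRY domain that binds the target. In macrophages several members tune the sensing of viral nucleic acids and the NF-kB and interferon pathways, and others take part in autophagy, membrane traffic and the silencing of chromatin.

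Each culture was hybridised to its own one-colour array, so culture and array cannot be told apart. All 4 arrays lay on 1 slide. A level below is the log2 processed signal of a gene's brightest probe relative to the 75th percentile of its array, which was 347 to 554 intensity units over a median local background of 36 to 41 units. By the scanner's flag, 15314 to 16708 probes stood well above background on an array, and no spot was saturated. Levels of different genes come from different probes and were not ranked against each other. Of 11 macrophage markers 9 were detected on all 4 arrays, Cd68 among them, and Marco and Adgre1 on none. Of 8 lung epithelium markers 1 was (Foxj1), and 2 more (Krt18 and Sftpa1) were detected on 1 array each. Of 3 measured lymphoid markers 0 were detected on all arrays, but Cd3d was on 3, at a mean of -3.88. On replicate 3, genes with bright signals tended to lie low, which touches the TRIM values as given with each result.

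Detection on all 4 arrays was found for 21 of the 48 measured TRIM genes, or 43.8%, near the 45.7% of all 16579 genes. A further 6 members were detected on some of the arrays (6.06% of all genes were), and 21 had no array with a detected probe (48.2% of all genes). The family as a whole thus did not stand out by detection. Detection means that at least 1 probe of the gene was well above background on over 0.5 of its spots. Replicate 1 had 22 detected members, replicates 2 and 3 had 25 each, and replicate 4 had 24. By role, 9 of 14 measured members with innate immune or antiviral functions were detected on all arrays, against 2 of 7 of those known from microtubules, muscle and membrane repair. By protein type, 12 of 24 PRY-SPRY members were detected on all arrays and 7 on none, while of 6 members without a further domain 0 were detected on all arrays and 5 on none. Of 5 members that lack the RING, 1 (Trim14) was detected on all arrays. These groups are small, and their differences were not tested.

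**Figure D1:**
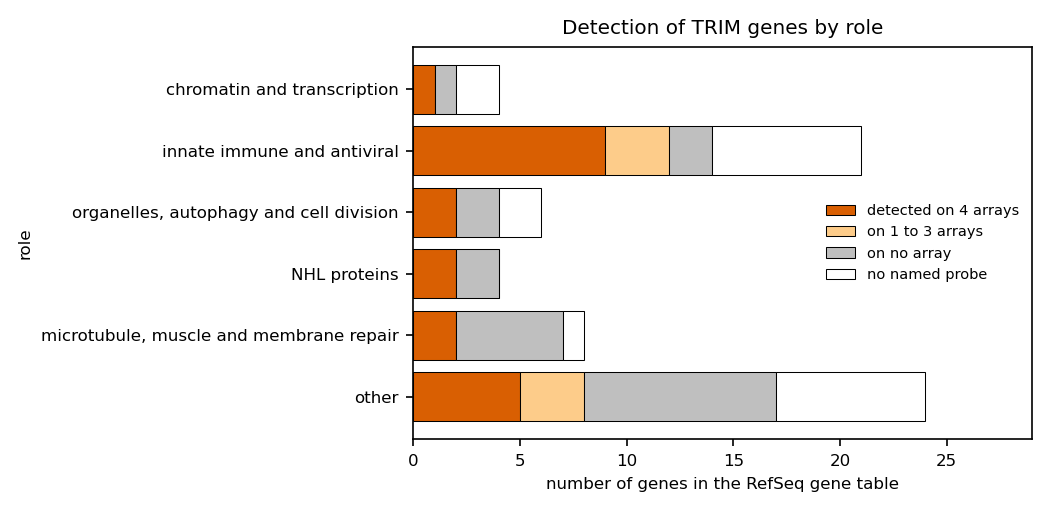
Number of TRIM genes in the RefSeq gene table (horizontal axis) in each role (vertical axis), split into those detected on 4 arrays, on 1 to 3 arrays, on no array, and those with no named probe. The innate immune group holds 9 genes detected on all 4 arrays, and the group of microtubule, muscle and membrane repair genes 5 detected on none.

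The promoters of the family differ in base composition and in the motifs they hold. RefSeq promoter windows of GRCr8 (250 bases before to 50 after the start, 300 in all) were found for 49 of the 67 genes. The 16 TRIM genes detected on all arrays held a median of 19.5 CG dinucleotides per window, and the 19 detected on no array a median of 8. Over all genes with a window the same medians were 21 and 6, so the TRIM genes followed the general split. Trim28 had 37 CG dinucleotides and was detected. Trim44 had 40 and was not, while Trim21 and Trim30d had 2 each and were detected on 3 and 4 arrays. In all, 12 motifs were searched on both strands, and stretches are printed for a pair of them, chosen after their counts were seen. A match describes the letters only and is no evidence that a factor binds there.

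The interferon-stimulated response element, searched as GAAA and GAAA with any 2 bases between them, was present in 4 of the 49 TRIM windows (8.16%) and in 3.77% of all 27457 windows. Hits that overlap were merged, and capitals mark the matched bases. The Trim34 hits begin 10 and 16 bases after the start, and the printed Trim34 stretch is cut short on the right. Hits of Trim21, Trim26 and Trim40 lie before the start. Trim34 and Trim26 were detected on 4 arrays, Trim21 on 3 and Trim40 on none, so the motif occurred on both sides of detection. Among the 463 measured genes that hold this motif, 192 (41.5%) had a detected probe on each of the 4 arrays. The same share was 47.1% for the 13553 measured genes with a window. Median CG dinucleotides were 6 for the holders and 15 for genes with a window, and the part of base composition was not tested.
Trim21 (chr1:166399349-166399414, minus strand): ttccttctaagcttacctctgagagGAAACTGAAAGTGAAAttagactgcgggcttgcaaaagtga
Trim34 (chr1:168119028-168119072, plus strand): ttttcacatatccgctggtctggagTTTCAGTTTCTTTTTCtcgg
Trim26 (chr20:1736469-1736534, minus strand): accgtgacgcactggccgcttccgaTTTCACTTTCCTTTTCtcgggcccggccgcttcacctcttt
Trim40 (chr20:1681107-1681166, plus strand): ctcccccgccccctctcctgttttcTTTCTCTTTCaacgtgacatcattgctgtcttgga

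The palindrome of nuclear respiratory factor 1, searched as GCGCA and GCGC with any 1 base between them, was present in 4 of 49 TRIM windows (8.16%) and in 4.71% of all windows. Its holders Trim28, Trim32, Trim37 and Trim13 were detected on all 4 arrays, as were 76.2% of all 954 measured genes with the motif, against 47.1% of all 13553 measured genes with a window. Genes with the motif held a median of 26.5 CG dinucleotides, against 15, and the part of base composition in their detection was not tested. Capitals again mark the matched bases, and their values follow in the accounts by role.
Trim28 (chr1:82724788-82724847, plus strand): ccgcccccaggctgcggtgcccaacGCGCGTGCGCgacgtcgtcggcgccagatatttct
Trim32 (chr5:84020593-84020652, plus strand): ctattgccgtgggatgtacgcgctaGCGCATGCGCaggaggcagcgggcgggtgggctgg
Trim37 (chr10:72440589-72440648, plus strand): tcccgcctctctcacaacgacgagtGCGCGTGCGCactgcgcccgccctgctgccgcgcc
Trim13 (chr15:39939808-39939867, plus strand): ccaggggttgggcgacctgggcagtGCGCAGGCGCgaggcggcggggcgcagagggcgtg

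The other 10 motifs are given by their share of windows. The CCAAT box (CCAAT) was in 20 TRIM windows (40.8%, against 37.7% of all), the GC box (GGGG, C and GGGG) in 6 (10.4% of all), and the AP-1 site (TGANTCA) in 4 (7.33% of all). The core of the antioxidant response element (TGAC and GC with any 3 bases between) was in 3 (12.2% of all) and the TATA box (TATAAA) in 3 (14.3% of all). The interferon-gamma activated site (TTC and GAA with any 3 bases between) was in 2, Trim23 and Trim31 (8.68% of all). The cAMP response element (TGAC and GTCA joined) was in 2 (1.91% of all), the ETS site (CCGG and AAGT joined) in 2 (4.01% of all) and the E-box (CACGTG) in 1 (6.65% of all). The NF-kB site (GGGA and TTTCC with any 1 base between) was in 0, against 0.371% of all.

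Among the chromatin regulators, Trim28 was detected on all arrays. It encodes the co-repressor KAP1, which KRAB zinc finger proteins bring to DNA to silence genes and retroelements. Its levels were 3.69, 3.44, 3.07 and 3.33 on replicates 1 to 4, a mean of 3.38 ± 0.26 (SD, n = 4). Replicate 3 was the low one and replicate 1 the high one, and the arrays spanned a 1.53-fold range. Trim66, a related protein of the same PHD-bromodomain type, was not well above background on any array with either of its probes. Of 6 measured partner genes of Trim28, 4 were detected on all arrays. For comparison, the share among all measured genes was 45.7%, and with so few partners the difference was left untested. The H3K9 methyltransferase gene Setdb1 lay at -1.45 ± 0.06, the heterochromatin protein genes Cbx3 at 3.09 ± 0.18 and Cbx5 at -2.75 ± 0.58, and the deacetylase gene Hdac1 at 1.09 ± 0.11. Of these partners only Cbx5 had a low unadjusted p by limma's prior variance (0.0051). Its adjusted p was 0.27, so its spread was not called. Unadjusted values below 0.05 were seen for 6.67% of all tested genes. The probes of Dnmt1 and Hdac2 were not well above background.

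The innate immune members detected on all arrays were Trim5, Trim6, Trim14, Trim25, Trim26, Trim27, Trim30d, Trim34 and Trim35. Trim25, the ligase that acts on the RNA sensor RIG-I, lay at 2.01, 1.81, 1.79 and 1.85 on replicates 1 to 4. Its SD of 0.10 was the smallest among the 21 detected members. Trim35, a ligase reported to act on the interferon regulator IRF7, lay at 4.21, 4.04, 3.75 and 4.11 on replicates 1 to 4. Trim27, a ligase of nuclear bodies and endosomes, lay at 2.95, 2.81, 2.52 and 2.81. Trim26, whose gene lies in the region of the major histocompatibility complex (MHC) and whose promoter stretch is printed above, lay at 1.72, 1.78, 1.42 and 1.72. All 4 of these genes were lowest on replicate 3, for Trim25 by a margin of only 0.02 to the next array.

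The other innate immune members detected on all arrays differed in which array was high or low. Trim5, known in primates as a factor that binds retroviral capsids, lay at -3.79, -3.70, -3.01 and -3.94 on replicates 1 to 4, so replicate 3 was the high one. Trim30d, of a rodent group whose mouse member Trim30a restrains NF-kB signalling, lay at -2.94, -2.75, -2.33 and -2.58, with replicate 3 again the highest. Trim34, a close relative of Trim5, lay at -2.20, -2.37, -2.05 and -1.51 and was highest on replicate 4. Trim6, which makes unanchored ubiquitin chains in interferon signalling, lay at -3.13, -2.43, -2.90 and -2.29, with replicates 2 and 4 above replicates 1 and 3. Trim14, a member without a RING that serves as an adaptor of the mitochondrial protein MAVS, lay at -3.18, -2.54, -2.53 and -2.41. Replicate 1 was the low one, and without it the level was -2.49 ± 0.07 (SD, n = 3). Trim5, Trim6, Trim34 and Trim30d are near relatives, and whether their probes share signal was not tested.

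Innate immune members at the edge of detection were Trim21, Trim31 and Trim65. Trim21, a cytosolic receptor for antibody-coated virus, was well above background on 3 arrays with 1 of its 2 probes. That probe lay at -4.32 on replicate 1, where it was not detected, and at -4.11, -3.56 and -4.16 on replicates 2 to 4. Trim31, a ligase of MAVS, lay at -4.75, -4.63, -4.57 and -3.82 and was detected on replicates 3 and 4. Trim65, a ligase of the RNA sensor MDA5, lay at -4.60, -3.83, -4.08 and -4.60 and was detected on replicates 2 and 3. On these arrays the dimmest probe that was well above background lay at -5.00, -4.45, -5.06 and -4.66. The probes of Trim8, a regulator of cytokine signalling, and of Trim23, which carries an ARF domain, did not pass the flag on any array.

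Sensing partners of these ligases were detected on all arrays in 9 of 12 measured cases, against 45.7% of all genes. Mavs lay at 0.96 ± 0.13 (SD, n = 4), the kinase gene Ikbke at 0.33 ± 0.09, Ikbkg at 0.76 ± 0.05, the transcription factor gene Irf3 at 2.52 ± 0.14 and Irf7 at -1.74 ± 0.50. Sting1, the adaptor of DNA sensing, lay at -1.58 ± 0.36. The RNA sensor gene Ifih1 (MDA5), Tbk1 and Tlr3 were not well above background. The RIG-I gene itself had no named probe. Of the 9 tested for spread by limma's prior variance, 0 were called after adjustment, while 2 (Irf7 and Sting1) had an unadjusted p under 0.05. By the same test 0.515% of all tested genes were called, and 6.67% had an unadjusted p under 0.05.

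Of 4 measured members that act at organelles, in autophagy or in cell division, Trim13 and Trim37 were detected on all arrays. Trim13, anchored in the endoplasmic reticulum and known from the breakdown of its proteins, lay at -0.89, -1.35, -1.22 and -1.25 on replicates 1 to 4. Trim37, which limits centriole duplication and acts at peroxisomes, lay at -0.36, -0.54, -0.39 and -0.86. Each had 1 array somewhat apart, replicate 1 high for Trim13 and replicate 4 low for Trim37. Trim16, which works with galectin-3 when lysosomes are damaged, was not well above background with either probe. The galectin-3 gene Lgals3 lay at 7.85 ± 0.33 and the autophagy receptor gene Sqstm1 at 5.84 ± 0.33 (SD, n = 4). Trim59 lay at -5.05, -4.91, -5.03 and -5.77, and was not well above background on any array.

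Of the 4 NHL proteins, Trim3 and Trim32 were detected on all arrays. Trim32, a ligase whose loss causes a limb girdle muscular dystrophy in people, lay at 0.15, 0.31, 0.19 and 0.55 on replicates 1 to 4. Trim3, known from traffic in neurons, lay at -1.57, -1.28, -1.36 and -1.47, and its SD was 0.12. Trim2, a ligase of neurofilaments, was not well above background with any of 3 probes. Trim71, the stem cell regulator LIN41, was not well above background either. All 9 measured genes on the list of cytosolic TRIM partners, ubiquitin-conjugating enzymes among them, were detected on all arrays (45.7% of all genes were). Ube2n lay at 1.79 ± 0.13 and Ube2d3 at 3.46 ± 0.11 (SD, n = 4).

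Among 7 measured members of microtubules, muscle and membrane repair, Trim36 and Trim55 were detected on all arrays. Trim55 (MuRF2), a sarcomere protein, lay at -1.73, -1.59, -1.87 and -1.71 on replicates 1 to 4. Another Trim55 probe was also detected on each array, at -2.31 ± 0.07, and the last of its 3 probes was detected on none. Trim36, a microtubule-binding ligase, lay at -2.72, -2.91, -2.49 and -2.70. Trim54 and Trim63, the other muscle RING finger genes, were not well above background, nor were Trim72, which repairs the muscle cell membrane, and the neuronal genes Trim9 and Trim67. Of 10 striated muscle and neuron markers 2 were detected on all arrays, Actc1 at 0.65 ± 0.32 and Tnnt2 at -1.95 ± 0.14. Des, Myh6, Myh7, Tubb3, Map2, Syt1, Snap25 and Rbfox3 were not well above background.

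The remaining 17 measured members held 5 detected on all arrays: Trim41, Trim42, Trim45, Trim47 and Trim69. Trim41 lay at 0.76, 0.69, 0.50 and 0.69 on replicates 1 to 4, with replicate 3 the lowest. Trim45, with a filamin domain, lay at -1.67, -1.35, -1.44 and -1.31. Trim69 lay at -2.31, -2.02, -2.16 and -2.10, with an SD of 0.12. Trim39, which stabilises the apoptosis regulator MOAP-1, lay at -4.32 on replicate 1, where it was not detected, and at -3.11, -3.08 and -3.08 on replicates 2 to 4. Its probe was printed at column 34, within columns 1 to 72, where the median SD over all tested genes was 0.18, against 0.15 beyond. The part of array position in the Trim39 values was not tested. Trim15 was detected on replicate 1 alone, where 1 of 4 probes lay at -4.39 against -5.67, -7.35 and -6.93. Trim17 was detected on replicate 2 alone, where 1 of 2 probes lay at -2.55 against -6.98, -7.14 and -6.69. Each of those Trim15 and Trim17 probes was printed on 1 spot, at columns 122 and 145. Trim10, Trim29, Trim40, Trim43a, Trim44, Trim50, Trim52, Trim58 and Trim60 were not well above background.

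**Figure D2:**
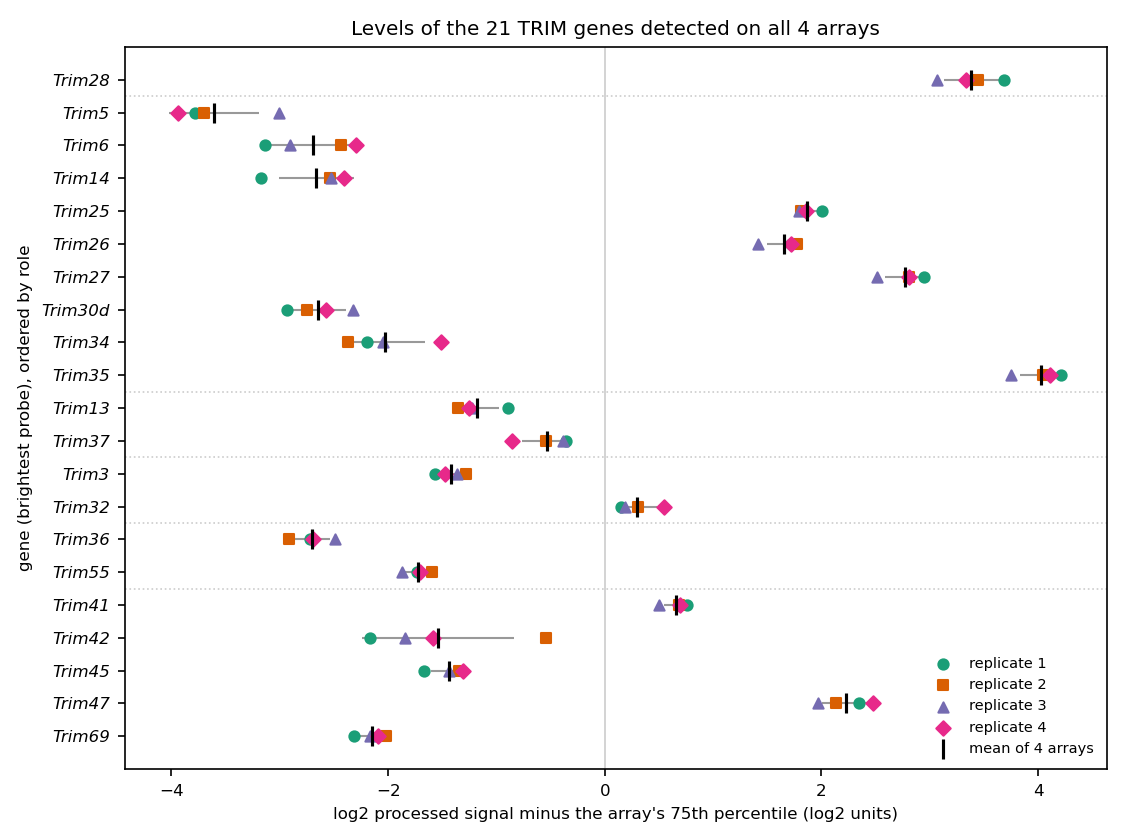
Level of the 21 TRIM genes detected on all 4 arrays, in log2 units relative to the array's 75th percentile (horizontal axis), by gene in order of role (vertical axis); coloured symbols are the 4 replicates, the black tick their mean and the grey bar the SD. The symbols of most genes lie close together, while replicate 2 of Trim42 (-0.54) stands 1.05 above its next array.

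The probe of Trim47 was printed on 10 spots. Its level was 2.34, 2.14, 1.97 and 2.48 on replicates 1 to 4. The SD between spots of 1 array was 0.04 on replicates 1 and 2 and 0.06 on replicates 3 and 4, while the SD between the 4 arrays was 0.22. The first is spot noise within an array, while the second holds differences of culture and of array together, so they are not like quantities. On replicate 1, 1 of the 10 spots was left out as an outlier by the scanner's flag. Spots of 1 array share their sample and are not replicates. RefSeq also gives Trim47 as an older name of Trim80, so the gene was taken by accession. Trim27 was printed on 2 spots. On replicate 1 they lay at 3.20 (column 8) and 2.71 (column 102), an SD of 0.34, while on replicates 2 to 4 the SD between them was 0.01, 0.02 and 0.01.

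Trim42 was the 1 TRIM gene called more variable between arrays than genes of like level. It lay at -2.16, -0.54, -1.85 and -1.59 on replicates 1 to 4, a mean of -1.54 ± 0.70 (SD, n = 4). The arrays spanned a 3.08-fold range, and the SD was 3.52 times the 0.20 that limma's trended, robust prior gave for that level (adjusted p = 0.0146 over 7570 genes). Of all tested genes 0.515% were called (39 of 7570), and 1 of 21 TRIM genes was. The call rested on replicate 2. Without that array the level was -1.87 ± 0.29 (limma prior variance, adjusted p = 0.981), and without replicate 3 the adjusted p was 0.0814. The call was also lost after quantile normalization (0.119), and with a prior that had no trend (0.658) or was not robust (0.126). Over 13 alternatives the adjusted p ran from 4.25e-06 to 0.981. The gene had 1 probe, printed on 1 spot at column 4, so no second spot shows the same pattern.

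The other 20 detected members had SDs from 0.10 to 0.41 and adjusted p from 0.796 to 0.993 by limma's prior variance, and none had an unadjusted p under 0.05, the lowest being Trim34. Among all tested genes 6.67% had an unadjusted p under 0.05. A p above the threshold does not show that a gene was stable. After Trim42 the largest SDs were those of Trim5 (0.41), Trim6 (0.39), Trim34 (0.37), Trim14 (0.35) and Trim30d (0.26), followed by Trim28 (0.26). These members apart from Trim28 had a mean level under -2, where the prior SD is higher. The smallest were those of Trim25 (0.10), Trim41 (0.11), Trim55 (0.12), Trim3 (0.12), Trim69 (0.12) and Trim45 (0.16). The median SD of the 21 members was 0.20, against 0.16 over all 7570 tested genes. The SD lay above the prior SD for 14 of 21 members, and for 39.5% of all tested genes. Among the 14 were the near relatives Trim5, Trim6, Trim34 and Trim30d, and the difference from all genes was not tested.

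**Figure D3:**
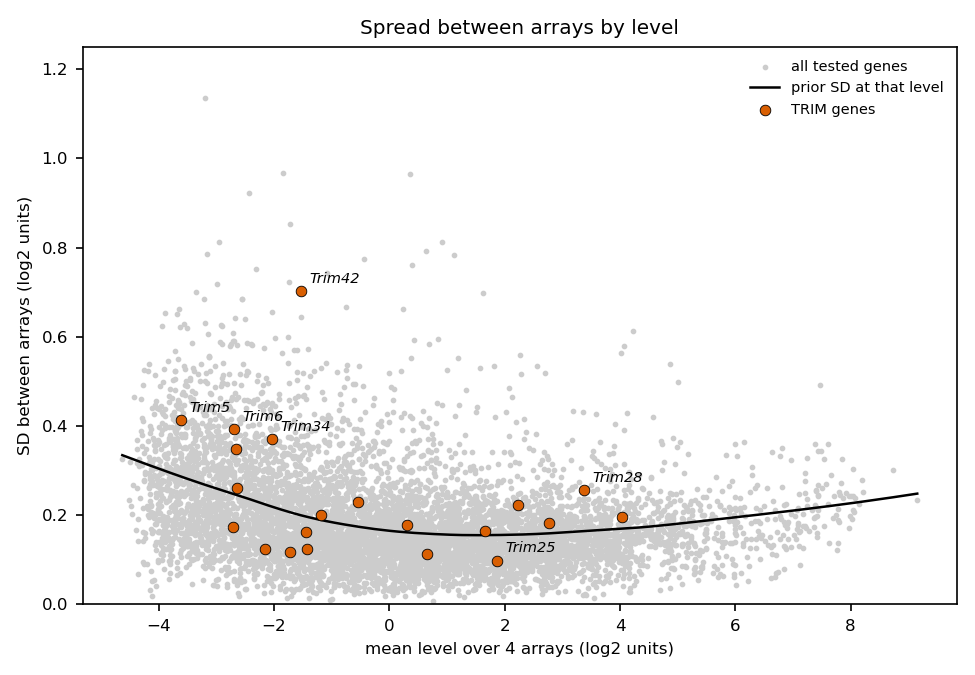
SD between the 4 arrays (vertical axis, log2 units) against mean level (horizontal axis, log2 units) for 7570 tested genes in grey and the 21 TRIM genes in orange; the line is the prior SD at each level. Trim42 lies far above the line at an SD of 0.70, and the dim members Trim5, Trim6 and Trim34 lie above it at 0.41, 0.39 and 0.37.

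On replicates 1 and 3, the direction in which members deviated differed between bright and dim members. Of the 8 TRIM genes with a mean level above 0, all 8 lay below their mean on replicate 3 (Trim25, Trim26, Trim27, Trim28, Trim32, Trim35, Trim41 and Trim47). That direction was also the case for 80.3% of all 3745 tested genes above 0. For members above 2 the median deviation on replicate 3 was -0.27, against -0.15 over all genes of that level. For members from 0 to 2 it was -0.14, against -0.09. Of the 7 members with a mean level under -2, 4 lay above their mean on replicate 3 and 3 below, with a median deviation of 0.14, against 0.02 over 1829 genes of that level. All 7 (Trim5, Trim6, Trim14, Trim30d, Trim34, Trim36 and Trim69) lay below their mean on replicate 1, by a median of 0.18. Of all genes at that level 51% did, with a median deviation of 0.00. The 4 members with a mean level above 2 (Trim27, Trim28, Trim35 and Trim47) all lay above their mean on replicate 1, by a median of 0.18, while 49.7% of all genes at that level lay below, with a median deviation of 0.00. Of the 7 dim probes, only that of Trim14, at column 14, was printed at columns 1 to 72. Of the 4 bright ones, those of Trim28 (column 41) and Trim35 (column 38) were, and 1 of the 2 Trim27 spots (column 8). The other Trim27 spot (column 102) lay at 2.71, 2.80, 2.50 and 2.82 on replicates 1 to 4, with replicate 1 below replicates 2 and 4. All Trim47 spots used on replicate 1 lay beyond column 72. Of members from -2 to 0, 4 of 6 lay below their mean on replicate 1, and of those from 0 to 2, 1 of 4 did. These limits of level were chosen after the values were seen, groups of 4 to 7 genes are few, and the differences were not tested. The part of array position in them was not tested either.

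The median deviation of the 21 members was -0.02, 0.03, -0.07 and 0.04 for replicates 1 to 4. For all tested genes it was 0.00, 0.02, -0.08 and 0.05. These medians pool the members under -2 and above 2, which deviated in opposite directions on replicate 1. The array farthest from a member's mean was replicate 3 for 10 members, replicate 1 for 7, replicate 4 for 3 and replicate 2 for 1. Replicate 3 was the farthest as a low value for 7 of 21, against 27.3% of tested genes, and replicate 1 was the farthest in either direction for 23.7% of tested genes. By Dixon's ratio of gap to range, 1 array stood apart for 2 members (Trim14 and Trim26), against 5.46% of tested genes. Members were printed at columns 1 to 72 in 11 of 21 cases, against 47.4% of tested genes. Their median SD was 0.20 there and 0.19 beyond, while over all tested genes it was 0.18 and 0.15.

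**Figure D4:**
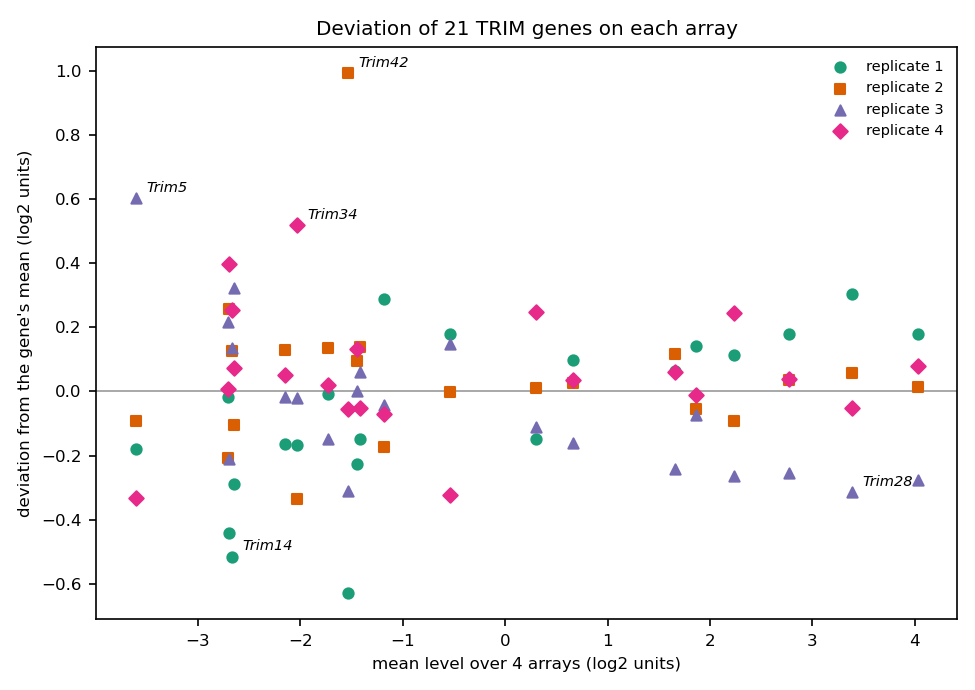
Deviation of each of the 21 TRIM genes from its own mean (vertical axis, log2 units) on each array, against its mean level (horizontal axis, log2 units); colours and shapes are the replicates. Replicate 3 lies below 0 for all 8 genes with a mean level above 0, and replicate 1 below 0 for all 7 genes under -2.

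Probes of 1 gene often disagreed. Of 12 TRIM genes with several probes, in 5 cases a probe passed on each array while a further probe passed on no array (Trim32, Trim34, Trim36, Trim37 and Trim55), against 16.2% of all 3658 genes with several probes. Trim32 had a probe at 0.30 ± 0.18 and another at -6.96 ± 0.28 (SD, n = 4). Trim37 had probes at -0.54 ± 0.23, -1.92 ± 0.35 and -7.00 ± 0.29, the last not well above background. The probes of Trim25 were detected on all arrays at 1.87 ± 0.10 and -2.15 ± 0.18. The remaining 36 members were measured with a single probe and have no such check.

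**Figure D5:**
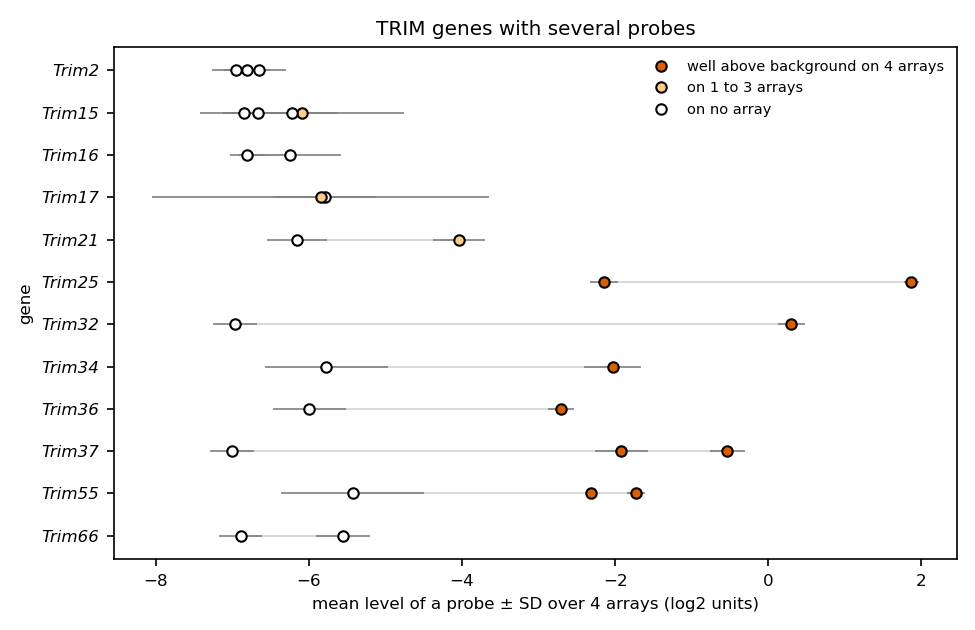
Mean level and SD over 4 arrays (horizontal axis, log2 units) of every probe of the 12 TRIM genes with several probes (vertical axis); fill shows whether the probe was well above background on 4, on 1 to 3 or on no array. Trim32, Trim34, Trim36, Trim37 and Trim55 each have a filled and an open symbol.

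Several members lie in clusters on the chromosomes, by the order of genes in the RefSeq table. On chromosome 1, Trim6, Trim34 and Trim5 follow each other with no gene between them, and Trim30d lies nearby. Between Trim5 and Trim30d lies the coding gene Trim30c, which had no named probe. The 4 measured genes were detected on all arrays, with mean levels from -3.61 to -2.03, and whether their probes share signal was not tested. On chromosome 20, Trim31, Trim40, Trim10, Trim15 and Trim26 lie in the MHC region with no other coding gene between them, and Trim39 lies further along. In that cluster Trim26 alone was detected on all 4 arrays, Trim31 was on 2 and Trim15 on 1, and Trim40 and Trim10 were on none. On chromosome 10, Trim47 and Trim65 are neighbours without a coding gene between them, and were detected on 4 and 2 arrays. Of 6 measured genes of the family that carry other symbols (Mid1, Mid2, Mefv, Bspry, Fsd1 and Triml2), 0 were well above background on any array. Of all genes 48.2% were detected on no array, and the difference in these few genes was not tested. Pml had no named probe.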

How the data were processed

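Members and lists were chosen with earlier results of these data known. The deposited intensity values are the processed spot signals of Agilent Feature Extraction 11.0.1.1, per the file headers and the submitters' processing notes. They are background-subtracted and detrended within an array, and not scaled between arrays. RNA (100 ng per sample) was labelled with Cy3, per the labels' protocols. Each file has 58717 spots that are not controls, for 45598 probes, of which 21109 were named by unversioned accession through RefSeq's GRCr8 table. The other deposited columns used were flags of 0 or 1 and, per the file headers, median spot and background intensities.

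From these, log2 signals were scaled to the 75th percentile of each array after 634 to 669 spots flagged as outliers were left out, and spots of a probe were averaged. The brightest probe stood for a gene. The variance between arrays was set against a trended, robust prior (limma 3.58.1, R 4.3.3, 24.3 prior and 3 residual degrees of freedom). The upper tail of F was adjusted by the Benjamini-Hochberg method over the 7570 genes whose brightest probe was detected on all arrays, with calls under 0.05. The test was run on data simulated from the fitted prior with normal noise, so that run cannot check whether the prior holds for the real arrays. In it, 2% of genes with an SD raised 2 times were called, 26% at 3 times, 66% at 4 times and 80% at 6 times. Of genes left unchanged, 0.0136% were called. Named were all members, with array values for those detected on all or some arrays, and lists of partners and markers. Alternatives were other detection flags, flagged spots kept, normexp with offset 50, other scalings, the mean over probes, spots beyond column 72, other filters and priors, and each replicate left out. For normexp the median spot signal took the place of the mean signal, which was not used here. With 1 group, p-values measure only the spread between these 4 samples, each on its own array. The number of arrays limits the precision.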

Additional observations from a re-analysis of the deposited data

Results flagged for a closer look

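Trim14 had 1 array far from the others. It lay at -3.18 on replicate 1 and between -2.54 and -2.41 on the other arrays, and the gap to the nearest array made up 0.833 of its whole range, above Dixon's critical value for 4 samples. Its probe was printed at column 14, within columns 1 to 72, and the part of array position in this gap was not tested. Trim26 was low on replicate 3, at 1.42 against 1.72 to 1.78, with a gap of 0.839 of its range. Chance flags about 5% of genes, and 5.46% of all tested genes were past that value, against 2 of 21 TRIM genes.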

How the results depend on the processing

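The number of TRIM genes detected on all arrays stayed within 1.5 times under every alternative run. It was 29 with the more lenient flag for a positive and significant signal (which adds Trim15, Trim17, Trim21, Trim31, Trim39, Trim59, Trim65 and Trim66), 27 when 1 array sufficed, and 21 to 23 with each replicate left out. The 1 call of a more variable gene, Trim42, fell to 0 calls after quantile normalization (2 members had an unadjusted p below 0.05), beyond column 72, where its probe has no spot (2), with a prior without trend (3) or not robust (1), and without replicate 2 (0) or 3 (3), so it ran from 0 to 1 with each replicate left out. Over all genes 206 were called with normexp against 39, 127 with no filter on dim genes, 77 without replicate 2, 21 beyond column 72, 16 without replicate 4, 12 after quantile normalization, 10 without replicate 3, 9 with a prior that was not robust and 0 (467 with an unadjusted p under 0.05) without a trend. The median SD of the members was 0.17 both after quantile normalization and beyond column 72, and 0.17 to 0.22 with each replicate left out. Their median deviation moved to 0.089 on replicate 2 with normexp, to -0.15 on replicate 1 with the mean over probes, and beyond column 72, with 13 members, to -0.15, -0.091 and -0.017 on replicates 1, 2 and 3. With each replicate left out it ran from -0.085 to -0.00066 on replicate 1, 0.0015 to 0.04 on replicate 2, -0.10 to -0.07 on replicate 3 and -0.017 to 0.066 on replicate 4. Of 286 comparisons of a member's SD with its main value, 281 kept their side of the threshold and 5, all of Trim42, lost it, and the cause was not tested. No paired analysis was possible because the samples form 1 group.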
